A study of Rattus norvegicus with 6 samples.

Results

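Genes of fat cell formation and fat storage were compared between 2 kinds of cultured precursor cells of newborn Sprague-Dawley wild-type rats. Of 10 genes chosen for their roles, Pparg, Cebpa, Cebpb, Cebpd, Lpl, Cd36, Plin1, Plin2, Adipoq and Lep, 8 had a probe set that the platform's gene table assigns to a single gene, out of 18166 genes measured in that way. Cebpd and Cd36 were not analysed here; the probe set that carries the name Cd36 carries another gene's name as well. Each of the 8 has 1 such probe set, so that no choice between probe sets was needed.

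The arrays hold 3 cultures of skin-derived precursors (SKPs) taken from the back skin and 3 cultures of Schwann cell precursors (NSCPs) taken from the sciatic nerve, each from a separate isolate, with 1 array per isolate. SKPs were grown as spheres, seeded at 50000 cells/ml in medium with EGF (20 ng/ml), FGF2 (40 ng/ml) and the supplement B27 at 2%. NSCPs were grown on laminin and poly-D-lysine in medium with 5 μM forskolin, a compound that raises cAMP, neuregulin-1β at 25 ng/ml and the supplement N2 at 2%. The labels give both media in 1 passage that runs together, so this assignment of supplements and coating to the groups is a reading of it. Because the groups differ in tissue, medium and growth form at once, effects of these cannot be told apart. Neither medium is described as one that induces fat cells. Values are log2 expression levels, so a difference of 1 is 2-fold, and differences are given as NSCPs minus SKPs.

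Fat cell formation runs through a cascade of transcription factors. C/EBPβ and C/EBPδ act early and switch on Pparg and Cebpa, whose products maintain each other's expression and turn on the genes of the mature fat cell. Those genes serve fatty acid uptake (Lpl, Cd36), the coat of the lipid droplet (the perilipins Plin1 and Plin2) and hormone secretion (Adipoq, Lep). The dermis of newborn rodents contains precursors of a layer of fat cells under the skin. Several of these genes are not particular to fat cells: Cebpb and Plin2 are active in many cell types, and macrophages are known to express Pparg, Cebpa, Lpl and Plin2.

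Of the 8 genes, 7 were lower in NSCPs and 0 higher (limma, Benjamini-Hochberg adjusted p under 0.05 over all genes), and Lep did not pass. At an unadjusted p under 0.05 limma gave the same counts, 7 lower and 0 higher. Over all 18166 genes 18.6% were called lower, 25.2% higher and 43.7% in either direction. The median difference of the 8 genes was -1.83, against 0.14 over all genes. The 3 SKP arrays all lay above the 3 NSCP arrays in 7 of the 8 genes, a pattern seen in 22.1% of all genes, and the opposite order was seen in 0 of the 8 against 34.4% of all genes. The count of 7 was the same whichever array was left out. Since these are bulk samples, fewer cells of a type and less RNA per cell cannot be told apart.

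**Figure D1:**
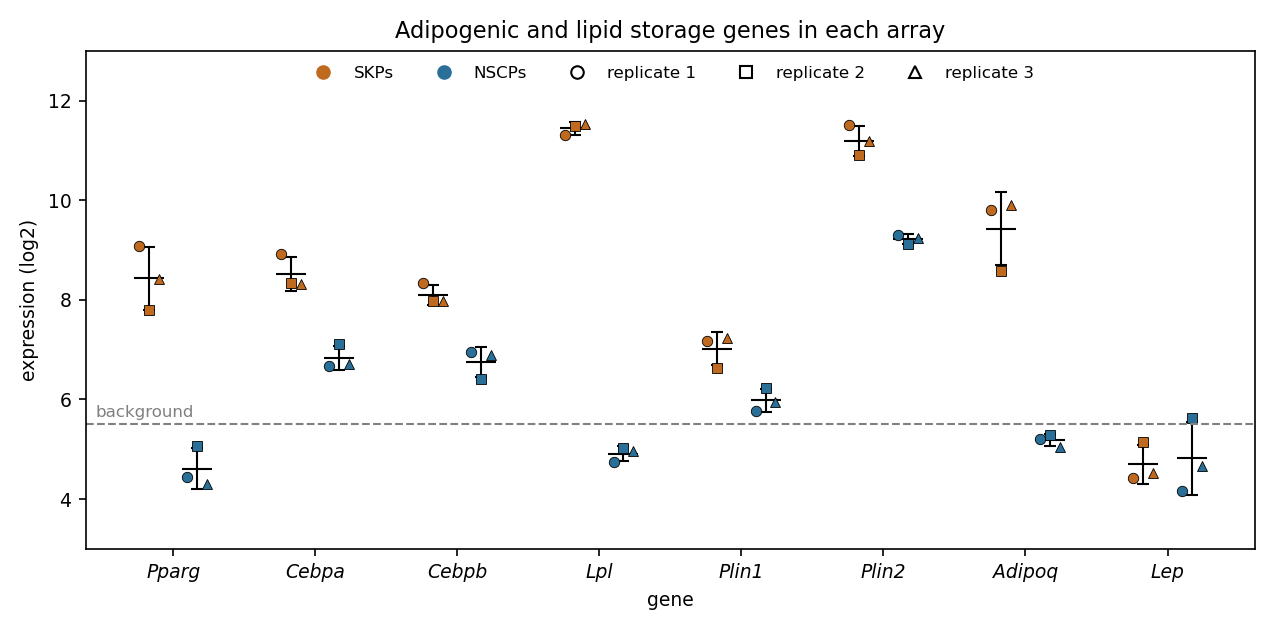
Expression (log2) of the 8 genes in every array, SKPs in orange and NSCPs in blue, with a marker shape per replicate, the mean as a horizontal bar and the SD as error bars (n = 3 per group); the dashed line is the background level of 5.5. For all genes but Lep the SKP points lie above the NSCP points, and the NSCP means of Pparg, Lpl, Adipoq and Lep lie below the line.

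The levels were read against an empirical background of 5.5, the 95th percentile of the mean levels of 1344 olfactory and vomeronasal receptor genes, which these cells are not known to use. In SKPs 7 of the 8 genes had a mean above it, and in NSCPs 4 did. A difference against a mean within background rests on that background level and not on a measured one.

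The master regulator of fat cell formation is PPARγ, a nuclear receptor for fatty acid derivatives that is encoded by Pparg. Its level was 9.07, 7.80 and 8.42 in SKP replicates 1, 2 and 3, and 4.45, 5.07 and 4.31 in NSCP replicates 1, 2 and 3. The groups were apart by more than either's own spread, and SKP replicate 2 was the lowest SKP array. The difference was -3.82 (SE 0.32, 95% interval -4.55 to -3.10, limma adjusted p = 2.18e-05), and the NSCP mean was within background. Of all genes, 1.37% had a lower difference.

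The other regulator of the terminal program is C/EBPα, a leucine zipper factor encoded by Cebpa. It stood at 8.92, 8.34 and 8.31 in SKPs and at 6.68, 7.11 and 6.72 in NSCPs. All arrays lay above background and the groups did not overlap. The difference was -1.69 (SE 0.20, 95% interval -2.14 to -1.24, limma adjusted p = 0.000175), which is 3.23-fold lower in NSCPs. Its early-acting relative C/EBPβ, encoded by Cebpb, is also an inducible factor of inflammation and growth signals. Cebpb stood at 8.33, 7.97 and 7.98 in SKPs and at 6.96, 6.41 and 6.90 in NSCPs. It was 2.52-fold lower in NSCPs, a difference of -1.34 (SE 0.18, limma adjusted p = 0.000415), again with every array above background. When limma's treat tested against a 2-fold change itself, 5 of the 8 genes were called lower, against 5.75% of all genes. Pparg (adjusted p = 0.000185) and Cebpa (adjusted p = 0.0407) passed and Cebpb did not (adjusted p = 0.396).

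Both transcription factor families named here bind short DNA words, and the sequences before the gene starts were searched for them. RefSeq's table (build GRCr8) held 9 start sites for 7 of the 8 genes; Lpl was not among them. In the 250 bases before each start, the C/EBP word TTGCNNAA was found in 3 of the 9 windows, against 9.22% of 33469 such windows of all genes. The nuclear receptor word AGGTCA was found in 0 of the 9 (14.1% of all windows), and so was the PPAR direct repeat, which is this word repeated after 1 base of any kind (0.0508% of all windows). Both strands were searched for each word. The TATA box word TATAAA was found in 2 of the 9 windows, those of Cebpa and Cebpb, against 12.9% of all windows. Also searched were the GC box word GGGCGG, found in 5 of the 9 (30.5% of all windows), and the word CCAAT, found in 4 (34% of all windows). These matches describe letters in a window and show no binding. The 3 windows with a C/EBP word are printed because they belong to genes of differing outcome, Pparg and Plin1, which were lower in NSCPs, and Lep, which did not pass the test; capitals mark the C/EBP word.
Pparg, the start site farther along the gene, chr4:150154522-150154771, plus strand: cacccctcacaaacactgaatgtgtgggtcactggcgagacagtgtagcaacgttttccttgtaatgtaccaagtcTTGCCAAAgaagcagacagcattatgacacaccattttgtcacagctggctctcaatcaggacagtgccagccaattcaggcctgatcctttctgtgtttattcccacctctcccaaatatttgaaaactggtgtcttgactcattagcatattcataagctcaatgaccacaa
Plin1, chr1:143086149-143086398, minus strand: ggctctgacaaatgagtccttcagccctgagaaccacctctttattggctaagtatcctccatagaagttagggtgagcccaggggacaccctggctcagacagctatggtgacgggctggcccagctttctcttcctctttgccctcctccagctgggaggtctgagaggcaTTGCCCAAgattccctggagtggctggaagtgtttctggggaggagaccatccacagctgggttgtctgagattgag
Lep, chr4:58626288-58626537, plus strand: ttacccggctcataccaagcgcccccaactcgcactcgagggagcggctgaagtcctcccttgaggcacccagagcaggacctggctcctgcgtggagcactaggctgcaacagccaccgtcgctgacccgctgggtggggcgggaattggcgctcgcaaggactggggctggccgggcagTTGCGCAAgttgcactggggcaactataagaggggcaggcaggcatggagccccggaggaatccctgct
The word starts at position -174 from the start site in Pparg, at -77 in Plin1 and at -69 in Lep, where TTGCGCAA reads the same on both strands. Pparg's other start site, at chr4:150096808-150097057, had no C/EBP word in its window. The probe set for Pparg gives 1 value for the gene, and transcripts from its start sites were not measured apart.

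Among the genes of fat uptake and storage, Lpl had the largest difference of the 8. It encodes lipoprotein lipase, the enzyme that frees fatty acids from circulating triglycerides for uptake. Its level was 11.30, 11.49 and 11.53 in SKPs and 4.75, 5.02 and 4.97 in NSCPs. Within each group the arrays lay within 0.27 of one another, and all NSCP arrays lay below background. The difference was -6.53 (SE 0.13, 95% interval -6.82 to -6.23, limma adjusted p = 2.15e-08). Among all 18166 genes, 23 had a lower difference than Lpl.

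The perilipins coat lipid droplets and control the access of lipases to the stored fat. Plin2, the perilipin of droplets in most cell types, stood at 11.50, 10.90 and 11.18 in SKPs and at 9.31, 9.12 and 9.24 in NSCPs. It was thus well above background in all 6 arrays while the groups did not overlap. Plin2 was 3.92-fold lower in NSCPs, a difference of -1.97 (SE 0.16, limma adjusted p = 2.18e-05). Plin1, the perilipin of mature fat cells, stood at 7.18, 6.64 and 7.23 in SKPs and at 5.77, 6.23 and 5.94 in NSCPs. The lowest SKP array, replicate 2, was close to the highest NSCP array, replicate 2. Plin1 was 2.06-fold lower, a difference of -1.04 (SE 0.19, limma adjusted p = 0.00249), and it did not pass treat's test against a 2-fold change (adjusted p = 1). The remaining perilipins, named here after their values were seen, did not pass: Plin3 differed by -0.07 (95% interval -0.34 to 0.19), Plin4 by -0.03 (95% interval -0.35 to 0.29) and Plin5 by 0.31 (95% interval 0.05 to 0.58, limma adjusted p = 0.0591).

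Adipoq encodes adiponectin, a hormone secreted by fat cells. It stood at 9.80, 8.58 and 9.90 in SKPs and at 5.20, 5.29 and 5.05 in NSCPs. All SKP arrays were above background and all NSCP arrays below it, and the lowest SKP array was replicate 2. The difference was -4.25 (SE 0.31, 95% interval -4.97 to -3.53, limma adjusted p = 1.07e-05), and 1% of all genes had a lower one. Lep encodes leptin, the hormone with which mature fat cells report their stores. Its level was 4.42, 5.14 and 4.52 in SKPs and 4.17, 5.62 and 4.66 in NSCPs, with 1 array, NSCP replicate 2, above background. The groups overlapped, and the difference of 0.12 (SE 0.35, 95% interval -0.68 to 0.92) did not pass (limma adjusted p = 0.798). It turned to -0.01 without SKPs replicate 1 and to -0.28 without NSCPs replicate 2.

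The SKP arrays differed among themselves in most of these genes. Of the 7 lower genes, 5 had their lowest SKP value in replicate 2 (Pparg, Cebpb, Adipoq, Plin1 and Plin2), while replicate 1 was the highest for 4 and replicate 3 for 3. For Cebpb this rests on 7.97 in replicate 2 against 7.98 in replicate 3, a near tie. The spread was widest for Adipoq, with 1.32 between the highest and lowest SKP array, and for Pparg with 1.27, and narrowest for Lpl with 0.23. Macrophage and leukocyte markers also differed among the SKP arrays. Their mean level over 14 markers was 10.07, 9.05 and 9.34 in SKP replicates 1, 2 and 3, and lay between 4.99 and 5.16 in NSCPs. Of the 14, 13 were lower in NSCPs and 0 higher, also at an unadjusted p under 0.05 by limma. Lyz2 differed by -8.80, Laptm5 by -4.26 and Fcer1g by -6.52, and Cd163, named after its values were seen, was within background in both groups. From high to low the macrophage list ran replicate 1, 3 and 2, and 3 of the 7 lower genes (Pparg, Cebpb and Plin2) had that order while 4 had another. These orders rest on 1 array per replicate, and that of Cebpb on the near tie given above. Cebpa was lowest in replicate 3, at 8.31 against 8.34 in replicate 2, which is also a near tie. Adipoq and Plin1 were highest in replicate 3, and Lpl was lowest in replicate 1. The mean level of 10 dermal mesenchyme markers was 11.43, 11.49 and 11.54 in the same arrays. That of 10 mature fat cell markers other than the 8 genes was 6.48, 6.15 and 6.49. Replicate 2 was lowest in the fat cell list as well, while its replicates 1 and 3 were almost equal. Adipoq and Plin1 also had replicate 2 lowest, with replicates 1 and 3 close together. The fat cell list includes Fabp4, a gene of fat cells and macrophages. The part of macrophages or of fat cells in the differences of the 7 genes was not tested.

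**Figure D2:**
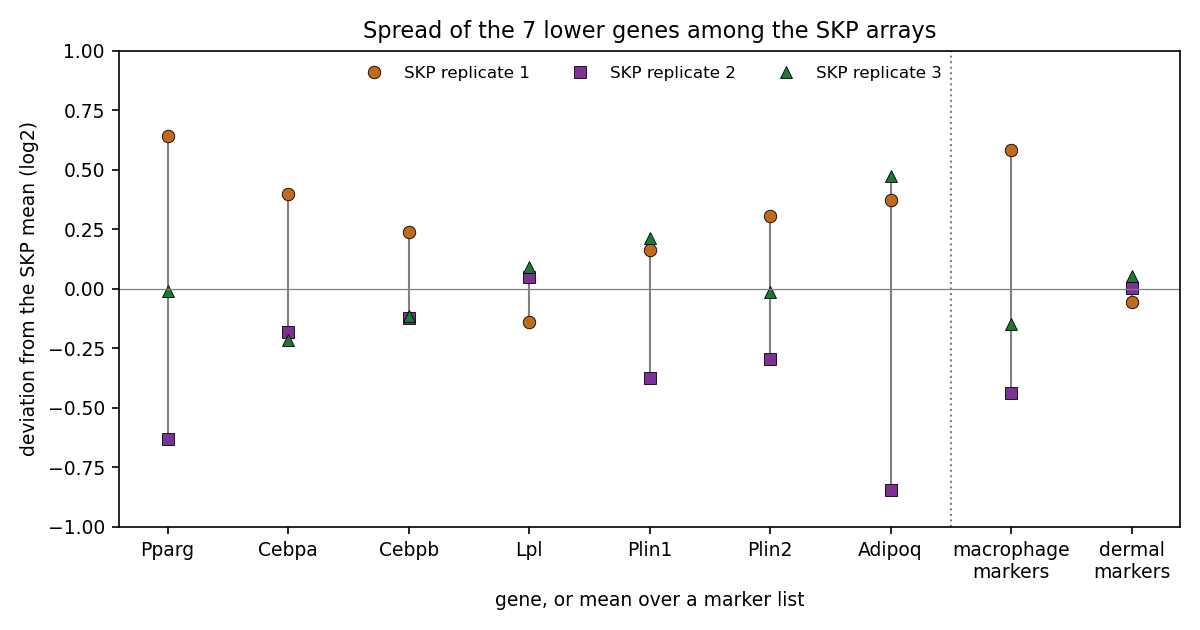
Deviation of each SKP array from the mean of the 3 SKP arrays (log2) for the 7 genes that were lower in NSCPs and, right of the dotted line, for the mean over the macrophage and the dermal marker lists, with a marker per replicate and a grey line from the lowest to the highest. Replicate 2 is lowest for Pparg, Adipoq, Plin1 and Plin2 and for the macrophage list, and nearly level with replicate 3 for Cebpb. Lpl and the dermal list spread little.

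The culture labels were checked with markers of each lineage. Of 8 Schwann lineage markers 7 were higher in NSCPs, among them Ngfr (2.19), S100b (4.35) and Sox10 (3.10), and Gfra3, named after its value was seen, was lower (-2.20). All 10 dermal mesenchyme markers were lower in NSCPs, with Col1a1 still at 11.80 ± 0.18 (SD, n = 3) there. Endothelial markers gave 1 higher and 1 lower among 6, and keratinocyte markers 0 of 4 in either direction (1 higher at an unadjusted p under 0.05 by limma). Arrays of a group correlated across genes at 0.984 to 0.993 and arrays of different groups at 0.872 to 0.888, and from 63.8% to 65.8% of genes lay above background on each array.

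Mature fat cell markers other than the 8 genes were measured as well. Of 10 such markers 6 were lower in NSCPs and 0 higher, 0 also at an unadjusted p under 0.05 by limma, with a median difference of -0.51. Over all genes 18.6% were called lower and 25.2% higher. The count lower was 5 to 7 with an array left out and 1 with treat against a 2-fold change. Median centring gave 5 lower and 1 higher, and array weights 8 lower and 1 higher. Their mean level was 6.48, 6.15 and 6.49 in SKP replicates 1, 2 and 3 and 5.24 to 5.55 in NSCPs. Cidea, which encodes a lipid droplet protein of brown fat cells, was at 8.36 ± 0.23 in SKPs and 7.31 ± 0.09 in NSCPs (SD, n = 3 each). Fabp4, which encodes a fatty acid carrier of fat cells and macrophages, was at 8.97, 8.36 and 8.69 in SKPs and at 3.98, 4.62 and 4.43 in NSCPs, a difference of -4.33 (SE 0.21, limma adjusted p = 8.21e-07). Aqp7, which encodes the glycerol channel of fat cells, and Slc2a4, which encodes the insulin-responsive glucose transporter and is named after its values were seen, had means within background in both groups.

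A wider set of 83 genes of fat cell formation and lipid handling showed 37 lower and 11 higher in NSCPs, with a median difference of -0.33. The mature fat cell markers above are all among the 83, so their counts are not independent of these. Centring the arrays on their medians, which moved the median difference of all genes by 0.20 to 0.35, gave 31 lower and 24 higher among the 83, and 2704 lower and 8148 higher among all genes against 3376 and 4569 in the deposited scaling. The lists below are therefore given by role. Their counts are to be read beside the 18.6% of all genes called lower and the 25.2% called higher.

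**Figure D3:**
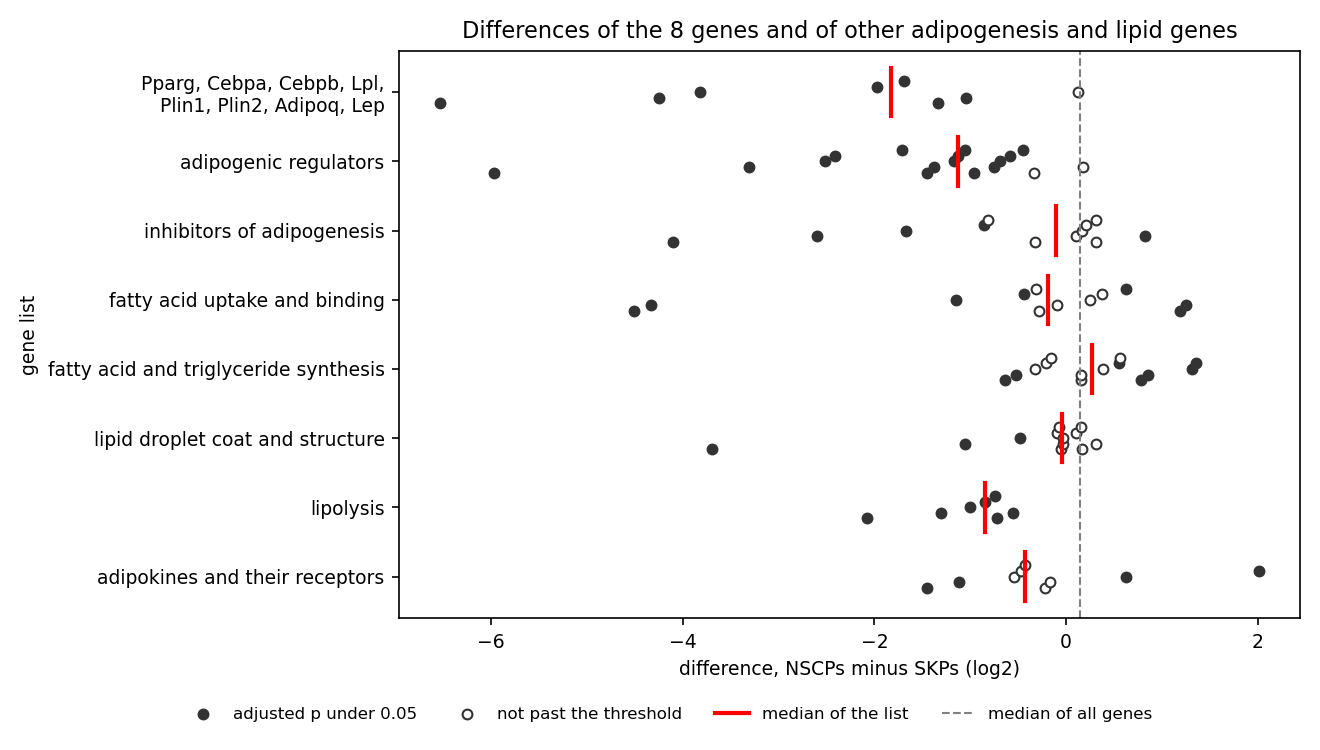
Difference NSCPs minus SKPs (log2) of the 8 genes and of 7 further lists, 1 point per gene with a vertical jitter, filled where the adjusted p was under 0.05; red bars are list medians and the dashed line is the median of all genes, 0.14. The 8 genes (median -1.83), the adipogenic regulators (-1.13) and the lipolysis genes (-0.85) lie mostly to the left of the dashed line, while fatty acid and triglyceride synthesis genes (0.27) lie on both sides.

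Regulators of fat cell formation and function were lower in 15 of 17 and higher in 0 (0 also at an unadjusted p under 0.05 by limma). After median centring 1 was higher and 13 were lower. With an array left out, 12 to 15 were lower, and with treat against a 2-fold change 5 were. Srebf1, Stat5b and Ppard, named after their values were seen, each missed the threshold in some of these settings. Averaging its probe sets gave Ppard a difference of -0.15 (limma adjusted p = 0.331). Ppargc1a, also named afterwards, counted as lower with both means within background. Ebf1, which encodes an early factor of the fat lineage and of B cells, stood at 11.08, 10.90 and 10.98 in SKPs and at 4.79, 4.94 and 5.31 in NSCPs. Its difference was -5.97 (SE 0.16, limma adjusted p = 5.37e-08), with the NSCP mean within background. The oxysterol receptor gene Nr1h3 differed by -3.31, the preadipocyte factor gene Zfp423 by -2.52 and Ebf2, a factor gene of brown fat precursors, by -2.41. NSCP means of Nr1h3 and Ebf2 were within background. The genes that did not pass, named after their values were seen, were Klf15 (-0.33, 95% interval -0.69 to 0.03) and the PPAR gene Ppara (0.18, 95% interval -0.11 to 0.46).

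Genes that restrain fat cell formation went both ways, with 4 lower and 1 higher among 12 and a median of -0.11. That split became 3 lower and 5 higher after median centring and 3 lower and 2 higher after renewed quantile normalization. Zfp521, which encodes an antagonist of Ebf factors and Zfp423, was lower in NSCPs by 4.10 on the log2 scale, at 9.60 ± 0.07 against 5.50 ± 0.15 (SKPs against NSCPs, SD, n = 3 each), the latter at the background level of 5.5, on which the difference rests. Dlk1, which encodes the preadipocyte surface protein Pref-1, differed by -2.60 (SE 0.31) and Klf3 by -1.67 (SE 0.15). Ddit3, the gene of the stress factor CHOP, differed by -0.86 (limma adjusted p = 0.0311). It missed the threshold without NSCPs replicate 1 (adjusted p = 0.0869), without replicate 2 (adjusted p = 0.102) and without replicate 3 (adjusted p = 0.0507), after renewed quantile normalization (adjusted p = 0.0704), after median centring (adjusted p = 0.0735) and with array weights (adjusted p = 0.0574). The gene that was higher was Foxo1, named after its value was seen, at 0.82 (SE 0.12).

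Genes of fatty acid uptake and binding had 4 lower and 3 higher among 12, or 3 lower and 5 higher after median centring. Over all genes 18.6% were called lower and 25.2% higher, so the count higher is near that share. Beside Fabp4, the scavenger receptor gene Msr1, a gene of macrophages, differed by -4.51, with both NSCP means within background. Higher in NSCPs were Vldlr, which encodes a receptor for triglyceride-rich particles, by 1.25 (SE 0.22), and Acsl4, which encodes an enzyme that activates fatty acids, by 1.19 (SE 0.18). Also past the threshold, and named after their values were seen, were Angptl4 (-1.15), which encodes a secreted inhibitor of lipoprotein lipase and had an NSCP mean within background, the fatty acid transporter gene Slc27a1 (0.62) and Slc27a3 (-0.44, limma adjusted p = 0.0287). Slc27a3 missed the threshold without SKPs replicate 1 (adjusted p = 0.0801), SKPs replicate 3 (adjusted p = 0.108), NSCPs replicate 1 (adjusted p = 0.0794) or NSCPs replicate 3 (adjusted p = 0.0962), after renewed quantile normalization (adjusted p = 0.0802) and after median centring (adjusted p = 0.138).

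Fatty acid and triglyceride synthesis genes had 5 higher and 2 lower in NSCPs among 14, and 9 higher and 1 lower after median centring. With treat against a 2-fold change the list had 0 higher and 0 lower. Gpam, which encodes the enzyme of the initial step of triglyceride and phospholipid synthesis, stood at 8.61 ± 0.14 in SKPs and at 9.96 ± 0.05 in NSCPs (SD, n = 3 each). Gpam was 2.54-fold higher (difference 1.35, SE 0.12, limma adjusted p = 3.66e-05) and its groups did not overlap. Acly, which encodes the enzyme that supplies acetyl-CoA for lipid synthesis, was 2.48-fold higher and the elongase gene Elovl6 1.80-fold. The desaturase gene Scd was higher by 0.78 (limma adjusted p = 0.0238) and missed the threshold without NSCPs replicate 1 (adjusted p = 0.0696), replicate 2 (adjusted p = 0.0722) or replicate 3 (adjusted p = 0.0518). The genes that were lower, named after their values were seen, were Dgat1 (-0.52) and Dgat2 (-0.64), whose products catalyse the last step of triglyceride synthesis. Without SKPs replicate 1, SKPs replicate 3, NSCPs replicate 1 or NSCPs replicate 3 the list had 1 lower gene, and without SKPs replicate 2 it had 3. Dgat1 missed the threshold in the former 4 settings, with adjusted p from 0.068 to 0.116, after renewed quantile normalization (adjusted p = 0.0632) and after median centring (adjusted p = 0.114).

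Other genes of the lipid droplet had 3 lower and 0 higher among 12 (1 higher at an unadjusted p under 0.05 by limma), and 2 lower and 2 higher after either renewed scaling. The count lower is not far from the 18.6% called lower over all genes. Cav1, which encodes the caveolar coat protein, was 12.9-fold lower (difference -3.69, SE 0.20), and Cidea was 2.07-fold lower. Cidec, which encodes a droplet fusion protein of fat cells, differed by -0.48 (limma adjusted p = 0.0367), with the NSCP mean within background. It missed the threshold without SKPs replicate 1 (adjusted p = 0.104), SKPs replicate 3 (adjusted p = 0.133), NSCPs replicate 1 (adjusted p = 0.104) or NSCPs replicate 2 (adjusted p = 0.0895), after renewed quantile normalization (adjusted p = 0.051) and after median centring (adjusted p = 0.136).

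Genes of lipolysis, the release of stored fat, were lower in NSCPs in 7 of 7 and higher in 0 (0 also at an unadjusted p under 0.05 by limma), and in 7 of 7 after median centring. Without SKPs replicate 3 the count lower was 6, as Pnpla2, named after its value was seen, missed the threshold (limma adjusted p = 0.0518). With treat against a 2-fold change it was 1. The lysosomal lipase gene Lipa, which is prominent in macrophages, was 4.24-fold lower, Abhd5, which encodes the activator of the triglyceride lipase, 2.00-fold, and the adrenergic receptor gene Adrb3 1.80-fold. Aqp7 differed by -1.30 with both means within background.

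Among adipokines and their receptors 2 were higher and 2 lower of 9. These counts are near the shares over all genes, 25.2% higher and 18.6% lower. Rarres2, which encodes the secreted adipokine chemerin, stood at 6.98, 7.96 and 7.08 in SKPs and at 9.34, 9.48 and 9.23 in NSCPs. It was 4.02-fold higher in NSCPs (difference 2.01, SE 0.24, limma adjusted p = 0.00022), opposite in direction to Adipoq. Adipor1, which encodes an adiponectin receptor, was 1.53-fold higher. Cfd, which encodes the complement protease adipsin of fat cells, differed by -1.45 (SE 0.31, limma adjusted p = 0.00546). Rbp4, which encodes a retinol carrier, differed by -1.12 (limma adjusted p = 0.0368) although its groups overlapped. It missed the threshold without SKPs replicate 1 (adjusted p = 0.0955), SKPs replicate 3 (adjusted p = 0.115), NSCPs replicate 1 (adjusted p = 0.115), NSCPs replicate 2 (adjusted p = 0.101) or NSCPs replicate 3 (adjusted p = 0.0542), so that each of these left 1 lower gene. Without SKPs replicate 2 the list had 5 lower genes. The NSCP means of Cfd and Rbp4 were within background.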

How the data were processed

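RNA of 3 SKP and 3 NSCP cultures was measured on expression arrays, with cDNA made from 400 ng of total RNA per the labels' protocols. The authors deposited 1 log2 expression value per probe set and array, made with oligo and RMA, per the submitters' processing notes; their versions are not stated there. RMA corrects background, equalises the distributions of the arrays by quantile normalization and summarises probes into probe sets, so a shift of all genes in a group would not be seen.

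Of 36685 probe sets, the platform's gene table gave 18511 a single gene symbol, 575 several and 17599 none. Symbols were updated by Entrez ID through RefSeq (GRCr8; 18394 matched, 117 kept the table's symbol). The brightest probe set was kept for 291 genes with more than 1, leaving 18166 genes. NSCPs were compared with SKPs with limma 3.58.1 (lmFit, eBayes, 2-sided) in R 4.3.3, without further normalization or filter, and p-values were adjusted by Benjamini-Hochberg across the 18166 genes, with 0.05 as the threshold. The code of the fit was checked on simulated data with a far smaller share of changed genes, so no error rate is taken from it. The number of arrays limits the precision. Figures were drawn with matplotlib 3.10.9.

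The genes and lists were chosen with earlier results of these data known. All 8 measured genes are named. Each further list is represented by up to 4 called genes with the largest difference, and each marker list by up to 3 markers. Same-numbered arrays of the groups deviated together only weakly (correlations of 0.0372, 0.0501 and 0.0283), so the numbers were not taken as pairs. Alternatives were limma's treat, array weights, a trended and robust prior, averaging a gene's probe sets, filters on dim genes, median centring, a new quantile normalization, a replicate block, and each array left out.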

Additional observations from a re-analysis of the deposited data

How the results depend on the processing

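The count of 7 genes lower in NSCPs was 7 under each array left out, the replicate block, both renewed scalings, the mean of all probe sets, the trended and robust prior and array weights. It was 5 with treat against a 2-fold change. The filters on dim genes tested 7 and 5 of the 8 genes and called all of those lower, but Pparg, Lpl and Adipoq pass the filter on background only through SKPs, where they are high, and the filter on the median takes a mean over both groups, so these counts are no support. The count higher stayed at 0. With an array left out the differences ranged from -4.14 to -3.50 for Pparg, -1.83 to -1.49 for Cebpa, -1.44 to -1.16 for Cebpb, -6.60 to -6.45 for Lpl, -1.23 to -0.93 for Plin1, -2.12 to -1.82 for Plin2 and -4.67 to -4.01 for Adipoq. Lep ranged from -0.28 to 0.45 and turned to -0.01 without SKPs replicate 1 and to -0.28 without NSCPs replicate 2, and the cause was not tested. With the replicate number as a block 7 of the 8 genes were lower and 0 higher, and 37 of the 83 further genes were lower and 11 higher, so the block left these counts as they were, although Slc27a3 (adjusted p = 0.0585) and Dgat1 (adjusted p = 0.0628) missed the threshold with it.

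Of the 83 further genes, 29 to 41 were lower and 10 to 12 higher when an array was left out. The number lower was 24 among genes above the median of all genes, where 50 of them were tested, and 12 with treat. The number higher was 24 after median centring, by whose construction differences moved up, and 1 with treat, which asks for a larger change. Levels below the background of 5.5 limit the differences of Pparg, Lpl and Adipoq, whose NSCP means lie there, and leave Lep without a measured level in either group.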

Other observations

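Markers of preadipocytes and adipose progenitors, the cells from which fat cells form, were also mostly lower in NSCPs, with 8 lower and 1 higher among 10 and a median difference of -1.56. The shares over all genes were 18.6% lower and 25.2% higher. With treat against a 2-fold change, 4 of these markers were lower and 1 higher. Dpp4, named after its values were seen, did not pass and had means within background in both groups. Pdgfra, which encodes the PDGF receptor alpha of mesenchymal precursors, differed by -6.88 with its NSCP mean within background, while Pdgfrb differed by -1.31 (SE 0.16) and stayed above background in both groups. The adhesion gene Icam1 differed by -1.38 (SE 0.15). Cd24, which encodes a surface protein used to sort early fat cell progenitors, named after its value was seen, was the higher gene, by 1.73 (SE 0.20, limma adjusted p = 0.000177). Several of these markers are also on the list of adipogenic regulators or of dermal mesenchyme, so the lists are not independent.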
